A study of Drosophila pseudoobscura with 29 samples.

Results

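A set of 150 genes of the fly Drosophila pseudoobscura was described whose promoter signal was concentrated at 22-24 h after egg laying, late in embryogenesis. The members were chosen by that signal itself. Among the genes that reached at least 25 RPM (reads per 1000000 reads) in some window, the share of a gene's RPM that fell at 22-23 h and 23-24 h was computed over 28 windows, and the 150 genes with the highest share were taken. They are 150 of 5964 genes that reached this level and of 8466 genes with gene-level values. The promoter values cover more genes, 10231, of which 6612 could be tied to these gene-level values. Genes outside the 8466 could not become members. Everything said here of their level over time is therefore a description of the choice, with no test.

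Whole wild-type embryos of the reference genome strain were collected in 29 windows of 1 h, from 0-1 h to 28-29 h, with 1 library per window and no replicates. RAMPAGE was used, a method that sequences cDNAs complete at their 5′ end, so that reads mark where transcription starts, and neighbouring start sites are grouped into transcription start site clusters (TSCs), called promoters here. All samples were barcoded, pooled and prepared as a single library. The 22-23 h and 23-24 h libraries held 1440146 and 3311104 reads in promoters, against 726088 and 920265 for the 2 windows before them and 5247396 and 723775 for the 2 after them. The 27-28 h library held 1011 reads and was left out of the sums. In whole embryos, fewer cells of a type and less RNA per cell cannot be told apart.

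In the last part of fly embryogenesis organs complete their differentiation, the epidermis and the tracheae secrete the cuticle of the larva, and the muscles that will be used for hatching become active. Many genes of such terminal programmes are silent before and are switched on late. Fly promoters also differ in shape. Start sites of tightly regulated genes are often focused on a few bases, whereas those of genes used in most cells are commonly spread over a broad region. The tables give FlyBase identifiers without gene names, so members are named by identifier and no role is given for them. Gene-level and promoter values use different identifiers for the same gene. The member FBgn0053160, for example, is FBgn0077346 in the promoter values. Genes are named here by their gene-level identifier, except FBgn0245239 and FBgn0076332_01, which come from the promoter values.

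The members were almost silent for the first 12 h and together highest at 22-24 h. Their summed signal was 37.6 RPM at 0-1 h and at most 497 RPM in any of the first 12 windows. In the 4 windows from 18-19 h to 21-22 h it ran 5516, 12681, 21401 and 40299 RPM. The 2 windows of the rule followed with 60196 and 65993 RPM, which is 6.02% and 6.60% of the reads of these libraries. The later windows, without 27-28 h, had 33812, 25183, 18923 and 12871 RPM. Most of this signal came from few members, as the 10 highest carried 54.3% of it at 22-24 h.

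The median member showed the same course at a lower level. It had 100.3 and 102 RPM in the 2 windows of the rule, while the median over the 5964 genes was 33.8 and 29.7 RPM. Outside them the median member had 0 RPM at 0-1 h, 20.6 RPM at 19-20 h and, in the last window, 22.4 RPM. With at most 3 reads over the first 12 windows together, 26 members were at or near the limit of detection there.

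**Figure D1:**
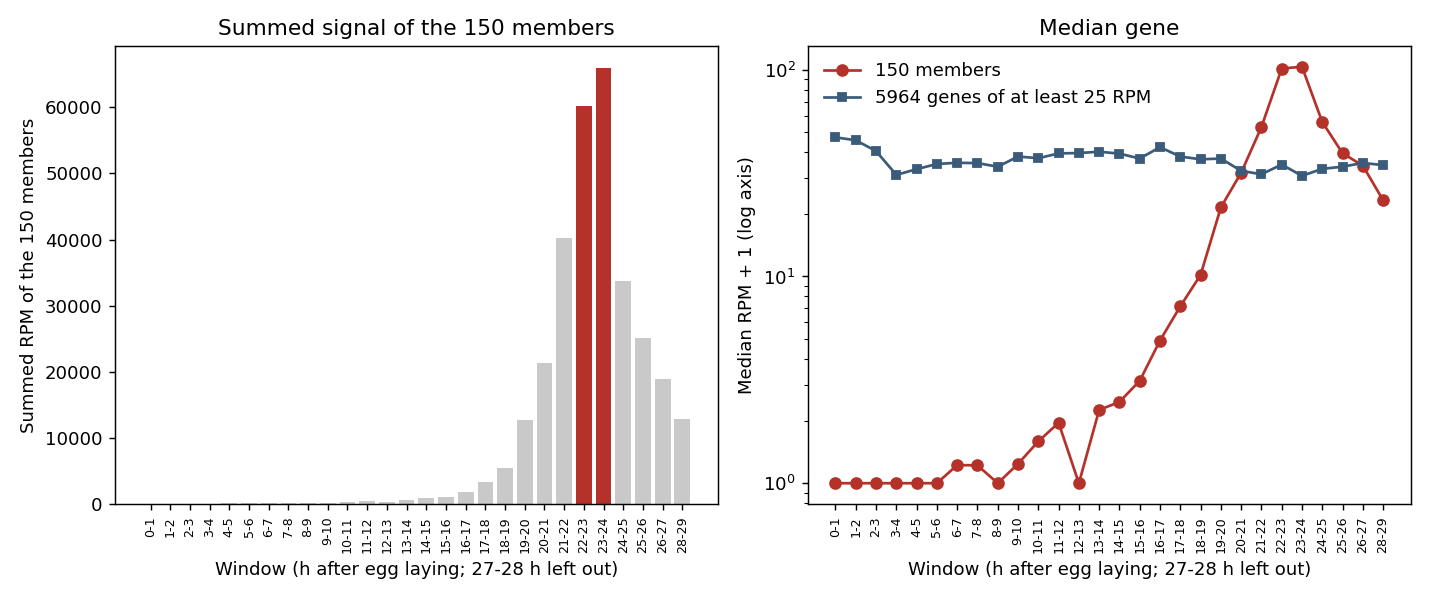
Left, summed RPM of the 150 members in each window (bars, 22-24 h in red). Right, median RPM + 1 of the 150 members (red) and of the 5964 genes of at least 25 RPM (blue) on a log axis. The members' median lies far below that of all genes until 19-20 h and above it from 21-22 h to 25-26 h, with 100.3 and 102 RPM at 22-24 h.

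Members placed between 31.5% and 80.9% of their RPM in the 2 windows, with a median of 36.1%. An even profile would place 7.14% there, and the median over the 5964 genes was 4.85%. The lower end of the list is not a step in the data. FBgn0034475, FBgn0035553 and FBgn0010015, the last members, had shares of 31.6%, 31.6% and 31.5%, and FBgn0031418, FBgn0035049 and FBgn0036727, just outside, had shares of 31.4%, 31.4% and 31.4%.

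The highest window was 23-24 h for 68 members and 22-23 h for 62. Of the other 20 members, 11 were highest before these windows (10 of them in 21-22 h and 1 in 20-21 h) and 9 after them (6 in 24-25 h, 1 in 25-26 h and 2 in 28-29 h). The split between both main windows depended on the scaling of the libraries. With median-of-ratios factors 28 members were highest at 22-23 h and 101 at 23-24 h, and with upper-quartile factors 35 and 92 were. Over 2-fold apart between these windows were 13 members (8.67%) and 13.4% of the 5964 genes. The members were chosen by these windows and had more RPM there, so nothing is read from the difference.

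**Figure D2:**
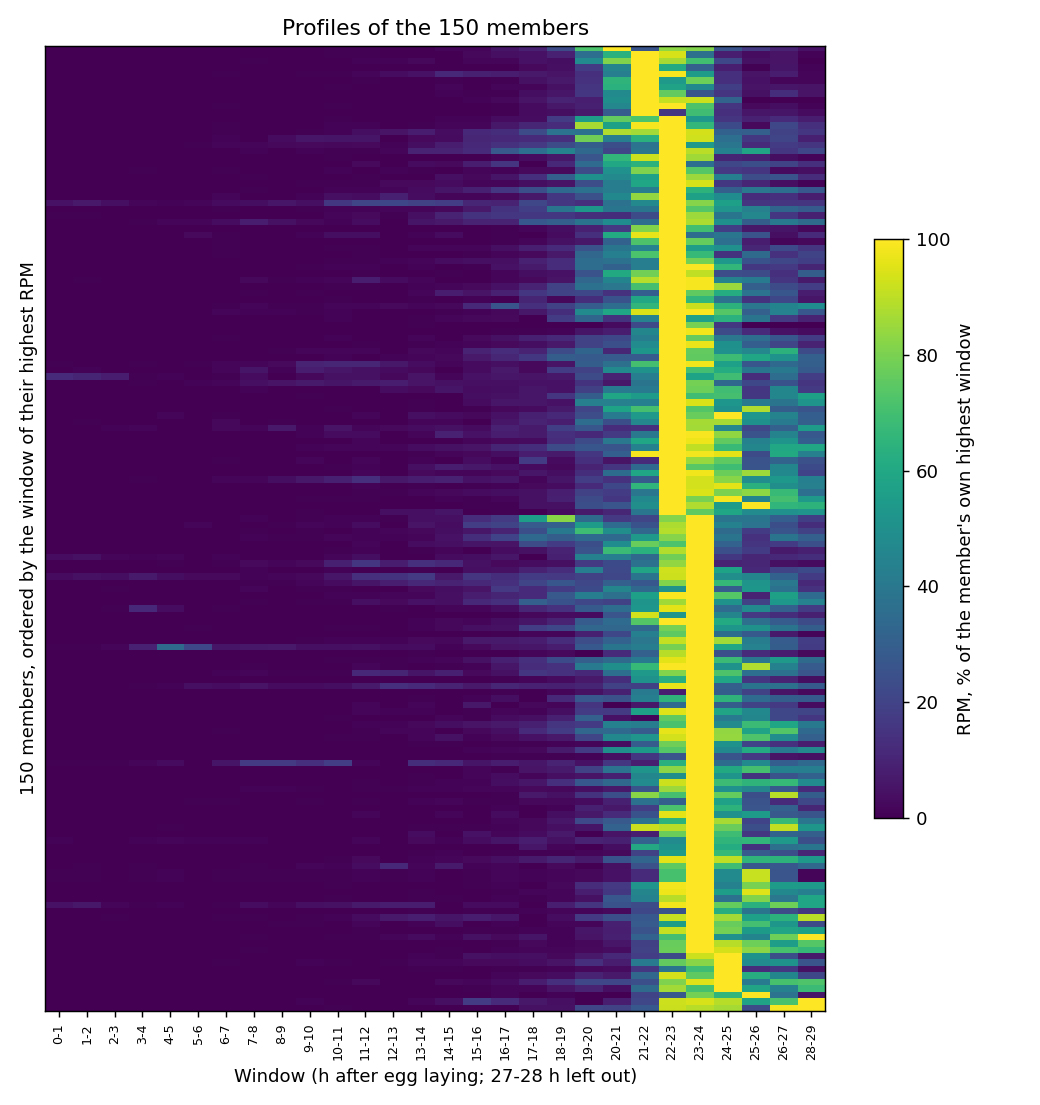
Each row is 1 of the 150 members and each column a window, and the colour gives RPM as a percent of that member's own highest window. The rows are ordered by the window of the highest value. Of the members, 130 are highest at 22-23 h or 23-24 h, most are dark before 15-16 h, and signal spreads over the windows on both sides.

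A profile confined to both windows was uncommon among the members. Each member was compared with the windows before and after by its mean RPM at 22-24 h plus 1 RPM over the same at 20-22 h or 24-26 h. The median fold was 2.47 over 20-22 h and 1.88 over 24-26 h, or 1.31 and 0.91 on the log2(RPM + 1) scale, on which the medians over the 5964 genes were 0.11 and 0.05. At least 2-fold above 20-22 h were 98 members (7.53% of all genes were), and at least 2-fold above 24-26 h were 68 (8.07% of all genes were). Both held for 34 members (1.02% of all genes) and a 4-fold margin on both sides for 2 (0.0335% of all genes). Since the rule used these windows, nothing is read from the excess over all genes.

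The members fell into kinds by the side on which they differed. Besides the 34 that stood 2-fold above both sides, 64 stood 2-fold above 20-22 h alone (6.51% of all genes did), 34 stood 2-fold above 24-26 h alone (7.04% of all genes) and 18 reached 2-fold on neither side (85.4% of all genes). Measured by the number of windows at or above 50% of the highest, the members had a median of 4 windows against 9 over all 5964 genes. It was 1 window in 3 members, 2 windows in 22, 3 in 49, 4 in 37, 5 in 27 and 6 in 12. Before 22 h, 65 members had already reached 50% of their highest value, and after 24 h, 96 were still at or above it. Only 18 members were at this level nowhere but at 22-24 h.

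**Figure D3:**
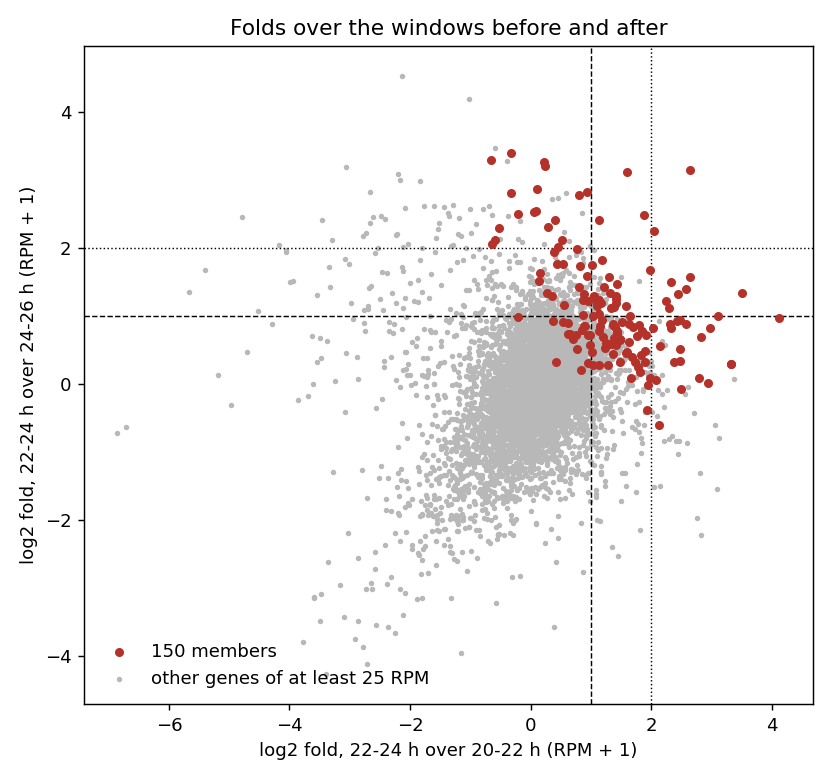
Each point is a gene of at least 25 RPM, with its log2 fold at 22-24 h over 20-22 h on the x axis and over 24-26 h on the y axis, both from mean RPM + 1. Dashed and dotted lines mark 2-fold and 4-fold. Of the 150 members (red), 34 lie beyond the dashed lines on both axes and 2 beyond the dotted ones, and the grey cloud of other genes is centred near 0.

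FBgn0053160 had the highest share, 80.9%, and was the member closest to a short burst. Its RPM ran 1.37, 9.71, 44.1, 35.1, 7.19 and 0 in the 6 windows from 20-21 h to 25-26 h, and no read was seen at 26-27 h or 28-29 h. The values at 22-23 h and 23-24 h rested on 64 and 117 reads, with exact 95% Poisson intervals of 34.0 to 56.3 RPM and 29.0 to 42.0 RPM that cover counting error only. A count of 0 at 25-26 h allows up to 4.12 RPM. The gene was 6.21-fold above 20-22 h and 8.84-fold above 24-26 h. Its single promoter spans 16 bp on arm XR (group 6), from 4023395 to 4023410 on the plus strand of the FlyBase r2.9 build.

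FBgn0038783 was the other member above 4-fold on both sides, at 4.11-fold over 20-22 h and 4.73-fold over 24-26 h. Its RPM was 5.47, 14.0, 40.7, 45.6, 11.2 and 5.49 from 20-21 h to 25-26 h, from 59 reads at 22-23 h and 152 reads at 23-24 h. With a pseudocount of 5 RPM in place of 1, only 1 of these 2 genes stayed above 4-fold on both sides. Both are low genes, so that their folds rest on few reads in the flanking windows.

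Among members of high share and high level, FBgn0037125 (65.2%) was at 123, 690, 1508, 1474, 350 and 180 RPM from 20-21 h to 25-26 h. FBgn0036390 (53.7%) was at 436, 862, 1501, 1995, 702 and 564 RPM in the same windows. FBgn0034140 (49.8%) was at 182, 680, 2214, 2603, 1317 and 1185 RPM. All 3 were highest at 22-24 h with lower values on each side, but FBgn0034140 still had 316 RPM in the last window, whereas FBgn0036390 had 33.5 RPM.

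A few members were high in 1 window alone. FBgn0053110 had 301 and 1136 RPM in the windows 22-23 h and 23-24 h, on 436 and 3791 reads, with 180 RPM just before and 296 RPM just after. FBgn0000527 had 11.7 and 33.6 RPM in the same windows, on 17 and 112 reads, and 2.16 RPM just before. FBgn0262001 had 219 and 2635 RPM in them. These are the 3 members with a single window at or above 50% of their highest, and for all 3 it was 23-24 h.

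FBgn0262001 had 1092 RPM in the window before, so its value at 22-23 h was over 2-fold below both neighbours. FBgn0040699 did the same, with 1517, 244 and 1049 RPM in the 3 windows from 21-22 h to 23-24 h. These are the only 2 members with such a dip, and 247 of the 5964 genes had one. The 21-22 h and 22-23 h libraries were the least alike of all neighbouring libraries, with a Pearson r of 0.905 across the 5964 genes on log2(RPM + 1), and without the members it was 0.906. Without a second library of these windows, a dip cannot be told apart from a difference between the libraries.

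The most abundant member was FBgn0035548, which was high before 22 h and low soon after 24 h. It was at 1493, 7307, 8993, 6278, 1653 and 582 RPM from 20-21 h to 25-26 h, 1.74-fold above 20-22 h and 6.83-fold above 24-26 h. FBgn0040842 followed a like course, with 3021, 4221, 4572, 3918, 477 and 408 RPM, 1.17-fold above 20-22 h and 9.57-fold above 24-26 h. FBgn0035861 was at 2429, 3728, 2010, 2900, 522 and 176 RPM, so it was highest at 21-22 h and lower at 22-24 h than before, at 0.80-fold. In all 3 the signal was already high at 21-22 h, and it was low from 24-25 h on.

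FBgn0052405 belongs with them, but with a gap. It had 3268, 851, 2708, 2648 and 844 RPM in the 5 windows from 20-21 h to 24-25 h, so its level at 21-22 h was below both neighbours. FBgn0039203 was at 182, 252, 428, 402, 68.8 and 46.7 RPM from 20-21 h to 25-26 h, and FBgn0040798 at 131, 303, 420, 320, 154 and 33.0 RPM. These 2 were likewise further above the later windows than above the earlier ones, at 1.91-fold and 1.70-fold above 20-22 h and 7.08-fold and 3.94-fold above 24-26 h.

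The opposite course, a steep start and lasting signal, was seen in other abundant members. FBgn0020439 was at 970, 2137, 5462, 5152, 4395 and 4544 RPM from 20-21 h to 25-26 h, and 2004 RPM remained in the last window. FBgn0058198 was at 99.7, 572, 2248, 2902, 2717 and 2399 RPM, with 1928 RPM in the last window, 7.65-fold above 20-22 h and 1.01-fold above 24-26 h. FBgn0020642 was at 373, 1057, 2254, 2315, 1291 and 2199 RPM, with 997 RPM in the last window. In all 3 the level at 25-26 h was above that at 21-22 h.

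FBgn0038294, with 721, 1037, 1992, 2155, 1481 and 1400 RPM from 20-21 h to 25-26 h and 1043 RPM in the last window, differed less from either side, at 2.36-fold and 1.44-fold. In all, 21 members were at or above 50% of their highest value in the last window. FBgn0033268 and FBgn0050163 were highest there, but by small margins in a library of 887281 reads in promoters, so their highest window is not settled. The promoter of FBgn0050163 had 33.3 RPM at 22-23 h, 33.8 RPM at 23-24 h and 36.1 RPM at 28-29 h. FBgn0033268 had 203, 196, 191, 50.8, 218 and 220 RPM in the windows from 22-23 h to 28-29 h other than 27-28 h.

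FBgn0005626 had a separate earlier maximum. In the 7 windows from 17-18 h to 23-24 h it had 147, 215, 89.8, 43.7, 53.9, 212 and 260 RPM, and thus a trough at 20-22 h. A further 7 members exceeded 25% of their highest value at some point of the first 18 windows. FBgn0263256 did so far earlier than the others, with 155 RPM at 23-24 h and 53.3 RPM as early as 4-5 h. FBgn0033958 reached 195 RPM at 22-23 h, after 70.9 RPM at 17-18 h. Over all members the highest value of the first 18 windows had a median of 6.04% of the maximum.

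By the window of the highest signal outside 21-25 h, FBgn0005626, FBgn0085404 and FBgn0033760 were the earliest and FBgn0035813, FBgn0050480 and FBgn0061356 among the latest. FBgn0085404 had 20.0 and 25.5 RPM in the 2 windows of the rule and 11.2 RPM at 19-20 h, and FBgn0033760 had 119 and 118 RPM and, at 19-20 h, 42.4 RPM. FBgn0035813 had 22.8 and 30.3 RPM and, in the last window, 10.1 RPM. FBgn0050480 had 23.4 and 47.0 RPM and, in the last window, 14.5 RPM, and FBgn0061356 had 32.4 and 27.9 RPM and then 17.9 RPM. Other than FBgn0005626 and FBgn0033760, these genes stayed under 50 RPM in every window. FBgn0037123 (57.3%) and FBgn0036878 (50.5%) complete the members of highest share, and FBgn0036878 had 29.6 and 41.7 RPM in the 2 windows.

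FBgn0034518 and FBgn0034519 had identical values in every window, among them 113, 673 and 950 RPM in the 3 windows from 21-22 h to 23-24 h. They count as 2 members but carry 1 set of values.

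The same rule was applied to every pair of neighbouring windows to place 22-24 h among them. The 150th gene had a share of 31.5% at 22-24 h, which was the highest of the 27 pairs. The pairs 0-2 h and 23-25 h came next, with 29.7% and 29.4%, and the lowest was 14.6% for 11-13 h. Of the members, 88 (58.7%) were also among the 150 genes for 21-23 h and 81 (54.0%) among those for 23-25 h, pairs that share a library with 22-24 h. Of the pairs that share none, 20-22 h had 30 members (20.0%), 24-26 h had 25 (16.7%) and the last pair, 26-27 h with 28-29 h, had 7 (4.67%). Each of these lists has 150 genes, so the shares hold both ways.

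Promoters were looked at next, since the rule did not use their width, number or position. The rows of the gene table were tied to promoters where their reads were equal in all 29 libraries to the summed reads of the promoters of exactly 1 annotated gene. This held for 120 of the 150 members and for 4514 of the 5964 genes. Of the other 30 members, promoters are not given. For each gene the promoter with the most RPM was taken as the leading one.

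Leading promoters of members were narrow. Their median width was 32 bp (95% interval of the median 27 to 42 bp), against 97 bp over the 4514 genes (96 to 99 bp). Widths ran from 8 bp, in FBgn0036878 and FBgn0050163, to 253 bp, in FBgn0010387, with quartiles of 20.8 and 75.8 bp. Under 50 bp were 77 of the 120 members (64.2%) and 655 of the 4514 genes (14.5%). Over 100 bp were 19 members (15.8%) and 2101 of all (46.5%). Among these members are FBgn0035548 (114 bp), FBgn0020439 (114 bp) and FBgn0058198 (112 bp).

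Width moved with level among the members. Those with a maximum of at least 1000 RPM had a median of 79 bp (n = 15), those from 100 to 1000 RPM 40.5 bp (n = 48) and those under 100 RPM 24 bp (n = 57). Members also held fewer reads, with a median of 1125 over the 28 libraries against 4332 over the 4514 genes. Within the members' middle range of reads, from 515 to 3261, the medians were 32 bp in 60 members and 81 bp in 1669 other genes. How much the depth of a promoter sets its called width was not tested beyond this.

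Narrow leading promoters were a property of late gene sets generally. The rule applied to other pairs gave medians of 90.0 to 113.5 bp for every pair up to 13-15 h, 54.5 bp for 17-19 h, 39 bp for 18-20 h and between 25 and 32 bp for every pair from 19-21 h on. The members' 32 bp is within the range of these late sets, whose lists overlap. A single promoter was assigned to 102 of the 120 members (85.0%), against 2435 of the 4514 genes (53.9%). For the other late sets this was between 70.5% at 19-21 h and 88.0% in the last pair. Members held fewer reads than all genes, as given above, and how far reads set the number of promoters called was not tested.

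**Figure D4:**
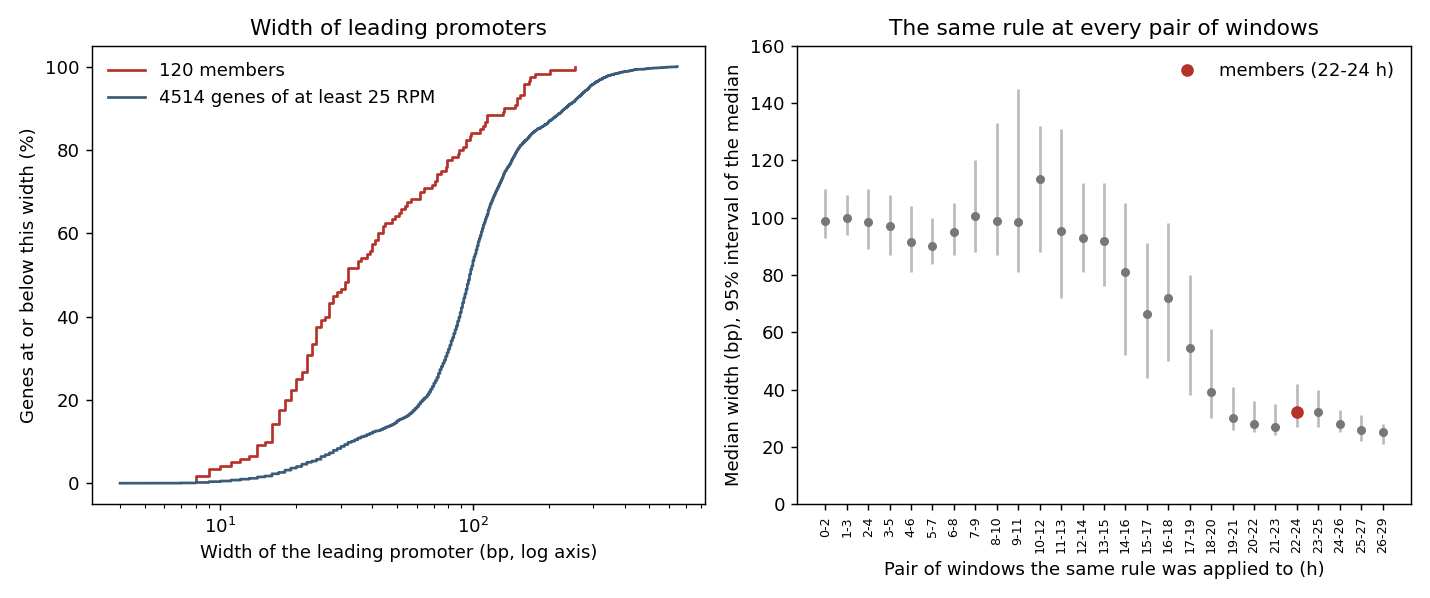
Left, the percent of genes whose leading promoter is at or below a given width, on a log axis in bp, for 120 members (red) and 4514 genes of at least 25 RPM (blue). Right, the median width of the leading promoters of the 150 genes picked by the same rule at each pair of windows, with the 95% interval of the median and the members in red. Medians lie near 90 to 113.5 bp for the early pairs and at 25 to 32 bp from 19-21 h on.

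In the 18 members with several promoters, the leading one had a share of at least 33.2% at 22-24 h. A high share of the leading promoter is largely set by the choice, since a member's RPM is the sum over its promoters. Of their 25 minor promoters, 10 had a share at or above that of the lowest member and 7 were under 10%. FBgn0036665 had 2 promoters of similar strength on arm XR, with 8703 bp between them. From 20-21 h to 25-26 h the leading one had 56.5, 83.7, 134, 133, 18.7 and 20.7 RPM and the other 9.64, 27.2, 110, 157, 6.86 and 9.67 RPM. Both were low from 24-25 h on, but the leading one was the higher before 22 h. FBgn0037068 had 2 promoters with 135 and 133 RPM at 22-23 h that differed in the windows around it. The leading one had 1.38 RPM at 20-21 h and 155 RPM at 24-25 h, and the other 39.9 and 29.5 RPM. In FBgn0263256 a minor promoter was highest at 5-6 h, with 14.3 RPM and a share of 6.95%. It can hold only the smaller part of the gene's early signal at 4-5 h, given above. The other minor promoters never exceeded 23.9 and 2.14 RPM. Some of the early signal thus lay in the leading promoter, which reached 130 RPM at 23-24 h.

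The members were spread over all arms, with the largest number on XR, one of the arms of the X chromosome in this species, which descends from an autosome. On XR lay 38 of 120 members, 31.7% (Wilson 95% interval 24.0 to 40.4%), and 917 of the 4514 genes, 20.3%. On chromosome 2 lay 25.8% of members and 24.1% of all, on chromosome 3 20.8% and 19.6%, on XL 10.8% and 15.7%, and on chromosome 4 10.0% and 17.5%. In the sets of the other pairs the share on XR ran from 16.3% at 1-3 h to 32.8% at 21-23 h. It was 28.3% at 13-15 h, 27.1% at 20-22 h, 28.5% at 23-25 h and 20.3% in the last pair. A share on XR above that of all genes was thus not particular to 22-24 h. Neighbouring members are counted singly here, and the interval covers counting error only.

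Some members lie next to each other. Within 20 kb of another member were 23 of the 120 (19.2%), in 9 groups, while 252 of 4394 other genes (5.74%) had a member within that distance. Within 10 kb it was 16 members (13.3%) and 124 other genes (2.82%), and within 50 kb 34 members (28.3%) and 507 other genes (11.5%). The groups were 7 pairs, 1 group of 3 and 1 group of 6. Their genes were picked out after their values were seen.

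The group of 6 lies in 12683 bp of arm XR (group 6), from 4466976 to 4479658. In their order along the arm these are FBgn0037129 (plus strand), FBgn0037128 (minus), FBgn0037125 (minus), FBgn0037124 (plus), FBgn0037123 (plus) and FBgn0037122 (plus). FBgn0037125 and FBgn0037124 point away from each other with 411 bp between their promoters. Each gene has 1 promoter, between 18 and 98 bp wide.

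These 6 neighbours did not all reach their highest RPM in the same window, although FBgn0037128, FBgn0037124 and FBgn0037123 shared 23-24 h. FBgn0037122 was highest first, with 307, 676, 414, 206, 57.5 and 4.12 RPM from 20-21 h to 25-26 h. FBgn0037124 was at 417, 1654, 2017, 3208, 1900 and 505 RPM, and FBgn0037123 at 32.8, 276, 743, 950, 488 and 191 RPM. FBgn0037125, given above, had 1508 and 1474 RPM at 22-23 h and 23-24 h, values whose counting intervals overlap, and with median-of-ratios or upper-quartile scaling it was highest at 23-24 h, like FBgn0037124, the gene it faces away from. The highest windows of the other 5 were the same under both scalings.

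At the other end of the stretch, FBgn0037128 was at 12.3, 118, 330, 603, 403 and 173 RPM from 20-21 h to 25-26 h. FBgn0037129 was the last, with 27.3, 141, 341, 613, 889 and 111 RPM. None of the 6 had more than 23.9% of its highest value at 26-27 h or more than 10.8% in the last window. The stretch holds 8 promoters in all, and the 2 that do not belong to members were not concentrated at 22-24 h. One, at 1009 RPM at its highest, was highest at 25-26 h with a share of 12.2%, and the other, of FBgn0037126, was highest at 7-8 h with 45.9 RPM and a share of 2.28%.

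**Figure D5:**
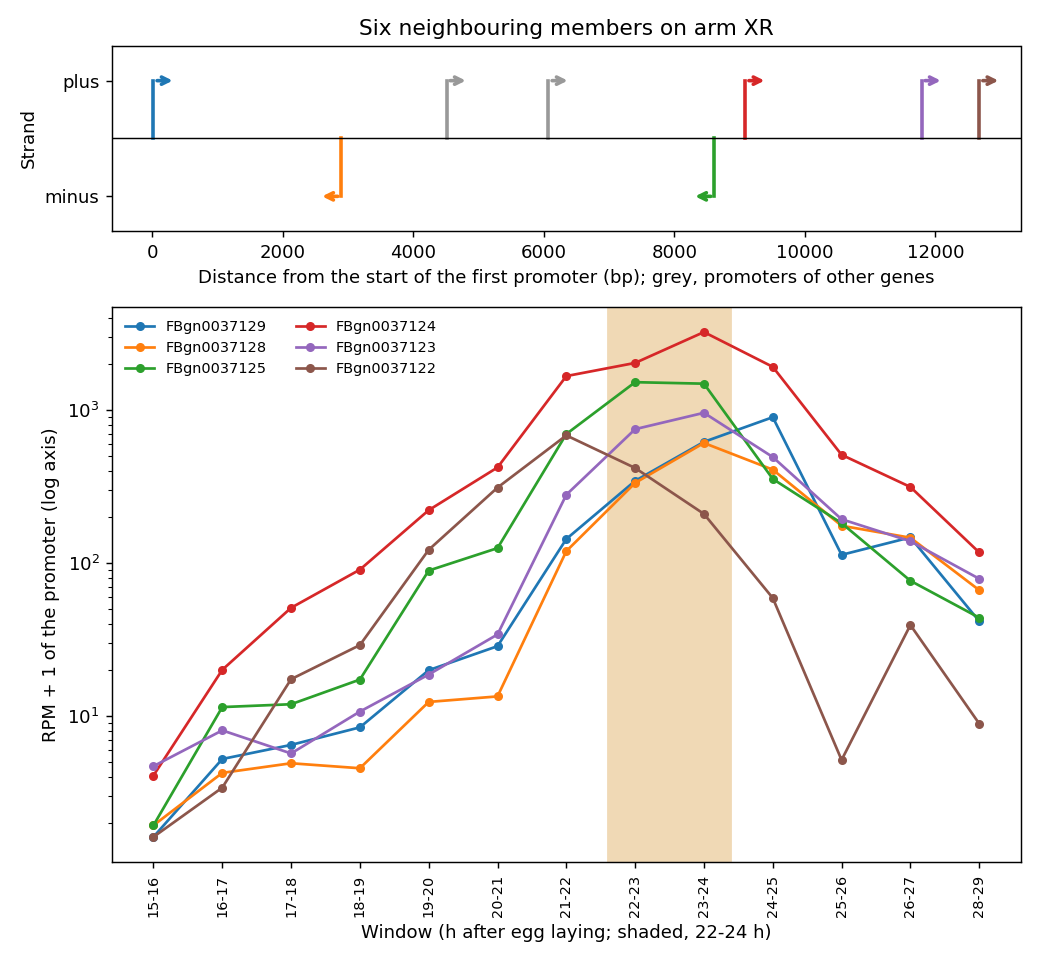
Top, the 8 promoters of the stretch by distance in bp from the start of the first, with arrows for the direction of transcription, members in colour and promoters of other genes in grey. Bottom, RPM + 1 of the promoter of each of the 6 members on a log axis, with 22-24 h shaded. FBgn0037122 is highest at 21-22 h, FBgn0037125 at 22-23 h (23-24 h under either other scaling), FBgn0037124, FBgn0037123 and FBgn0037128 at 23-24 h and FBgn0037129 at 24-25 h.

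Of the pairs, the closest were FBgn0040842 and FBgn0040843, with 1697 bp between their promoters on XR, and FBgn0035548 and FBgn0040699, with 1898 bp between them on XR. In both pairs the levels differed widely. FBgn0040842 reached 4572 RPM and FBgn0040843 102 RPM, and FBgn0035548 reached 8993 RPM and FBgn0040699 1517 RPM. FBgn0040699 dipped at 22-23 h, the window in which its neighbour was highest.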

How the data were processed

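RAMPAGE libraries of 29 windows of whole embryos were used, 1 per window. Per the study's methods, the authors aligned reads with STAR (version not given in the sources used here) to the FlyBase r2.9 genome, called TSCs on the pooled series, removed those over ribosomal DNA repeats and attributed promoters to genes. The deposited tables hold RPM per gene and per promoter. The deposited intervals carry a score of unstated meaning that was not used, and a deposited table of smoothed z-scores was not used.

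The members and gene lists were chosen with earlier results of these data known. Whole reads were recovered from RPM, and 100% of nonzero values came within 0.1 of a whole number in each library. A count test was not run, because each window has 1 library and the members were chosen by these values. Folds used mean RPM of 2 windows plus a pseudocount of 1 RPM. Named members were the 12 of highest share, the 12 of highest RPM at 22-24 h, the 3 with the earliest and the 3 with the latest second window, and the 3 genes just outside. The members with several promoters, an earlier maximum, identical values, a dip, signal in the last window or neighbouring members were chosen after their values were seen. Lists of gene families could not be matched, since the identifiers are not paired with names here, and no sequence is given. Alternatives were another minimum level, scaling, pseudocount, thinning of reads, promoter choice and distance. On simulated reads the steps were checked. Python 3.11.15, numpy 2.4.6, pandas 2.3.3 and scipy 1.17.1 were used.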

Additional observations from a re-analysis of the deposited data

Results flagged for a closer look

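The 27-28 h library, which no comparison used, held 4 reads of members among 1017 reads by which the gene table divides, 0.39% (Wilson 95% interval 0.15 to 1.01%). It was picked out because it is a signal outside the data compared and lies above the 3 reads that a count of 0 allows. The reads came from 3 members. The libraries on either side gave 1.89% (26-27 h) and 1.29% (28-29 h), both above the interval. At this depth no single member can be placed.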

How the results depend on the processing

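Of 27 alternatives, 20 stayed close to the values reported. For medians, close meant within the 95% interval. For counts the limit was loose, so that 105 members kept of 150, or 34 members with a neighbour against 23, counted as close. A turned direction was looked for only in the folds and none was seen, but the members were chosen by high signal at 22-24 h, so nothing is read from this. The list kept 105 of 150 members with a minimum of 10 RPM and between 132 and 149 under the other scalings, thinning and the sum with the 27-28 h library. It kept 121 without the 22-23 h library and 119 without the 23-24 h library. It kept 81 with a minimum of 100 RPM, which is every member of that level. With promoter RPM summed per gene it kept 74, where at most the 120 tied members can be kept. That ranking draws on 10231 genes, so genes without gene-level values can take places in it. With a pseudocount of 5 RPM the median fold over 24-26 h was 1.77. The members above both sides were 1 with that pseudocount and 34 at 2-fold. Members highest at 22-23 h were 28 with median-of-ratios and 35 with upper-quartile scaling, against 62. Under either scaling the median of all genes over 24-26 h was 0.12 or 0.11 (log2), and that of members stayed 0.87 or 0.86 above it. The width was also 32 bp when 9 members tied by at least 95% of their reads were added, a setting chosen after seeing the data. The share of promoters with TATAAA and its alternatives could not be run. No paired analysis was possible because each window has 1 library. Libraries of 20-22 h and 25-26 h are the shallowest of those compared, and folds of low members rest on few reads there.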

Other observations

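Promoters other than those of the 120 tied members had the same concentration. Of 8736 promoters with at least 25 RPM, 300 (3.43%) had a share at 22-24 h at or above that of the lowest member. Promoters listed under more than 1 gene with the same positions are counted once here, which leaves out 94 repeated entries, 2 of them with such a share. Of the 300, 120 belong to tied members, 22 to other genes tied to the gene table, 117 to genes not tied to it and 41 to no annotated gene. The 117 and the 41 can include promoters of the 30 members that were not tied. FBgn0076332_01, counted among the 117, held at least 95% of the reads of the member FBgn0051547. Promoters without a gene made up 13.7% of the 300 and 9.95% of the 8736.

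In 6 genes with a low share a single promoter was concentrated at 22-24 h. FBgn0052190 had a leading promoter highest at 14-15 h with 363 RPM and a share of 3.60%, and another on XR with 62.5 RPM at 22-23 h and a share of 78.0%. The second one had 0 RPM in the deeper 23-24 h library and in 20-22 h and 24-26 h, so its share rests on the 22-23 h library alone. FBgn0032910 had one highest at 2-3 h with 59.2 RPM (share 4.20%) and one highest at 23-24 h with 45.3 RPM (50.1%). FBgn0035199 had one highest at 17-18 h with 190 RPM (0.63%) and one highest at 22-23 h with 101 RPM (35.3%). Its weaker promoters, with at most 18.1 and 7.61 RPM, had shares of 23.9% and 22.5%. All these values are descriptions of promoters picked by the same share.

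The strongest promoter assigned to no gene spans 208 bp of XL (group 1e), from 10761397 to 10761604 on the minus strand, and was at 629, 2018, 1560, 4774, 3385 and 1570 RPM from 20-21 h to 25-26 h. On XR (group 6), between 9257957 and 9262656, 5 such promoters on the minus strand lay among 3 promoters of FBgn0245239 on the plus strand. The 5 were all highest at 22-23 h, with 30.6 to 125 RPM there, 10.6 to 34.4 RPM at 23-24 h and shares between 41.1% and 59.5%. The 3 were all highest at 23-24 h. Of these, the first had 34.0 and 53.8 RPM at 22-23 h and 23-24 h and a share of 37.4%. The other 2 had 2.08 and 0 RPM at 22-23 h, 42.3 and 25.4 RPM at 23-24 h and shares of 80.2% and 87.9%, which rest almost wholly on the 23-24 h library. The last of them spans 2 bp.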
